A study of Mus musculus with 6 samples.

Results

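A set of 9 genes of the oligodendrocyte lineage, out of 55487 in the deposited count table, was followed in the visual cortex of mice whose Mmp9 gene carries changes in its untranslated sequence. They were chosen by name: Mbp, Mog, Mag, Mobp, Cnp and Mal of the myelin sheath, the transcription factor gene Myrf, the lipid carrier gene Apod, and Enpp6, a gene of newly formed oligodendrocytes. Enpp6 came in because its level in homozygotes lay lowest against heterozygotes in an earlier reading of these counts. That contrast is therefore described here without a test for every member. All 9 were found by symbol, each with 1 Ensembl identifier, and all 9 passed the filter on low counts, as did 16119 genes in all.

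The tissue was dissected at postnatal day 28 from mice of strain B6.CBA/Tar. Homozygous mice (UTRmut/UTRmut, called UTRmut), heterozygous mice (UTRmut/WT, called het) and wild-type mice (WT/WT, called WT) gave 2 libraries each, in every genotype 1 from a female and 1 from a male. The labels name no promoter, Cre or cell type that restricts the mutation, and state neither which untranslated region or bases were changed nor whether animals were pooled. Each value is a count of sequenced RNA fragments per gene from total RNA, and nothing says that the libraries came from separate preparations. The 2 libraries of a genotype differ in sex, so they come from different animals. The genotype fits held no sex term, so their p-values measure the spread between a female and a male library. Sex, animal and preparation cannot be told apart in that spread. The p-values for sex and for the change per allele likewise rest on library-to-library spread.

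Oligodendrocytes wrap axons in myelin, a stack of lipid-rich membrane that speeds conduction. Precursor cells leave the cell cycle, pass through a short-lived newly formed stage marked by Enpp6, and then switch on the sheath genes under the control of SOX10 and MYRF. In rodent cortex myelination is still going on in the weeks after weaning, and myelin proteins that act on the Nogo receptor are known to limit plasticity of the visual cortex after the critical period.

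Total counts were 9500090 to 11966579 per library. Mmp9 itself was scarce, with 8 and 16 counts in the UTRmut libraries, 9 and 9 in het and 4 and 9 in WT. All 10 neuronal marker genes were measured, at a summed 5585 to 6140 CPM (counts scaled to library size, with factors from the trimmed mean of M-values), and no marker of the myelin or oligodendrocyte lists was at 0 in every library. One library stood apart for myelin genes. The UTRmut female was the lowest of the 6 libraries for 6 of the 7 genes Mbp, Mog, Mag, Mobp, Cnp, Mal and Myrf, whereas the UTRmut male was the highest for 4 of them. Results that rest on the UTRmut female are given with and without it.

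Of the 9 members, 7 matched a promoter window in RefSeq (GRCm38.p6, 250 bases before to 50 bases after the transcription start). These windows were searched for letters that SOX-family factors bind, because SOX10 is a known activator of myelin genes. ACAAAG or ACAATG, on either strand, occurred in the windows of 5 of the 7 genes, and in 28.6% of 32851 windows of all genes. The 7 genes had 9 windows, so the count of genes and the share of windows are not on the same footing. A match is only a string of letters. A 30-base stretch is shown for each gene, with a single match in capitals and each sequence read along the gene's own strand. The Mobp stretch also holds a neighbouring CTTTGT in small letters.
Enpp6: cgtttaccaaaaACAATGaggttgtatttt
Mobp: atctttgttggcCTTTGTtttctttttgtt
Cnp: aacttttaaggaACAAAGaggtggcgtggc
Mag: tgacaagggcccCTTTGTgcccccctcccc
Apod: agtggaaaatccACAAAGtgaaaaaaaata

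These stretches lie at chr8:46986656-46986685 (plus strand) for Enpp6, chr9:120149509-120149538 (plus) for Mobp, chr11:100574760-100574789 (plus) for Cnp, chr7:30914972-30915001 (minus) for Mag and chr16:31314875-31314904 (minus) for Apod. CTTTGT, which is ACAAAG on the other strand, stood 6 times in the Mobp window, between 243 and 120 bases before the start. No other of the 32851 windows held ACAAAG or CTTTGT 6 or more times, a number taken from the Mobp window after it was seen. The Mal and Mog windows held neither SOX-type string. The E-box letters CAGCTG (16.3% of all windows) were found in the Apod window alone among the members, and TATAAA (13.6%) in none.

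Per kilobase of exon, the sheath genes spanned a wide range of levels. Mbp, which encodes myelin basic protein, the adhesive that compacts the membrane layers, ranked 105th of the 16119 tested genes at 160 ± 18.3 CPM per kb (SD over 6 libraries). Mal (a proteolipid of myelin membrane sorting) and Cnp (2',3'-cyclic nucleotide phosphodiesterase, which keeps cytoplasmic channels in myelin open) stood side by side at 72.2 ± 6.74 and 71.9 ± 5.19 CPM per kb and did not differ beyond their spread. Mobp followed at 54.6 ± 3.76, Mag at 36.6 ± 3.18, and Apod and Mog at 22.5 ± 4.93 and 22.3 ± 2.67 CPM per kb, the last pair again within their spread. Enpp6 at 2.08 ± 0.465 and Myrf at 1.76 ± 0.251 CPM per kb were the least abundant and overlapped. The reads of Cnp are slightly uncertain, since 4.23% of its exon bases overlap Dnajc7 on the other strand.

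**Figure D1:**
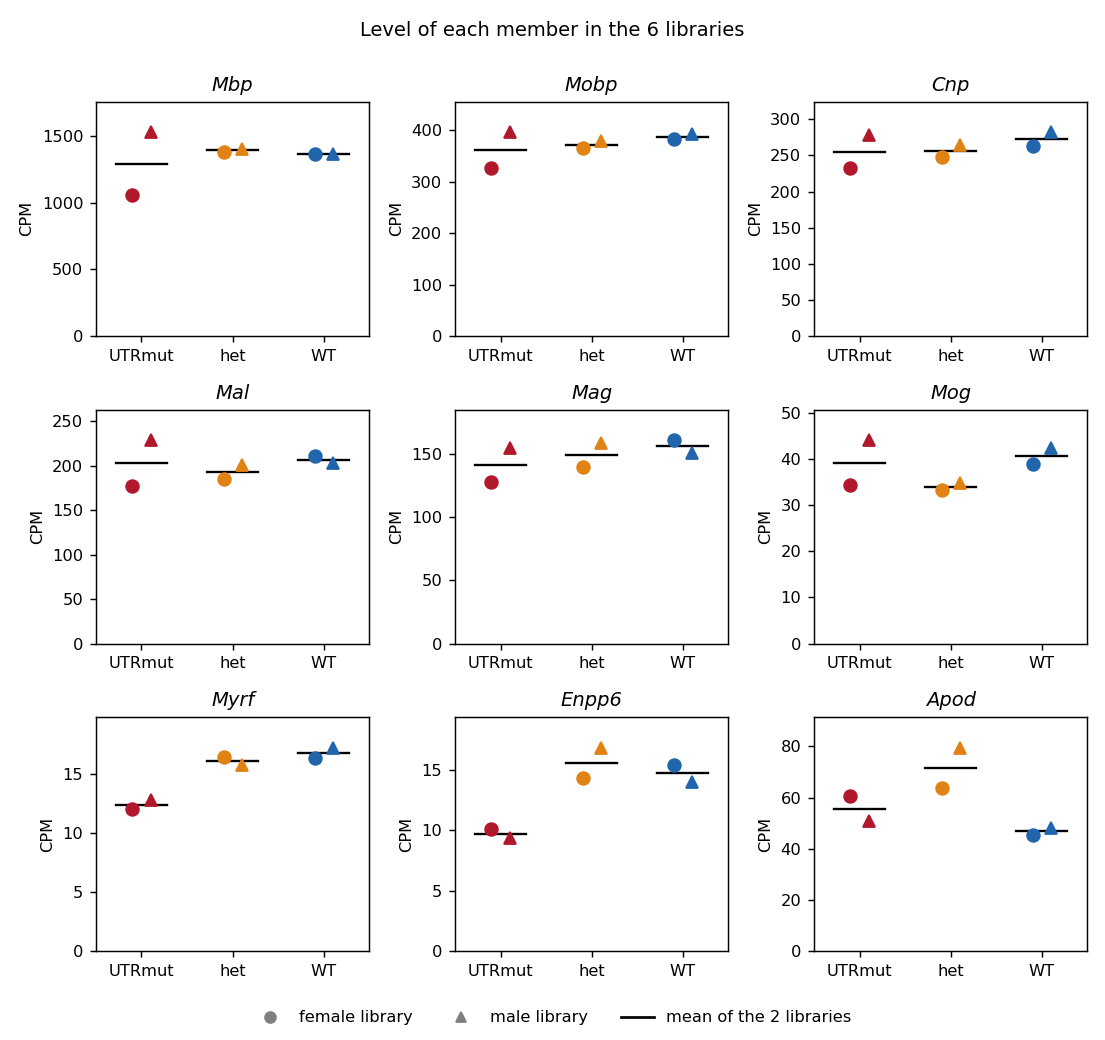
Level of each of the 9 genes in CPM (vertical axes, starting at 0) by genotype, with circles for female libraries, triangles for male libraries and lines for the mean of the 2. Both UTRmut libraries lie below the other 4 for Enpp6 (10.1 and 9.31 CPM) and Myrf (12 and 12.8 CPM), and both WT libraries lie lowest for Apod.

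Enpp6 and Myrf were the members whose UTRmut libraries both lay below all 4 others. The share of all genes that did so was not counted. In UTRmut 14.6% of all genes lay wholly below WT and 17.9% wholly below het. The choice of Enpp6 fixed part of its place. Enpp6 encodes a choline-specific glycerophosphodiesterase at the surface of newly formed oligodendrocytes. It had 108 and 107 counts in the UTRmut libraries (female, then male), 137 and 180 in het and 160 and 162 in WT. The gene lies at chr8:46986887-47096762 (GRCm38, plus strand). In scaled units these were 10.1 and 9.31 CPM in UTRmut, 14.3 and 16.8 CPM in het and 15.4 and 14 CPM in WT. Both UTRmut libraries lay below all 4 others, and het and WT overlapped.

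Enpp6 averaged 9.70 ± 0.548 CPM in UTRmut, 15.5 ± 1.81 in het and 14.7 ± 1.02 in WT (SD, n = 2 each). The log2 fold of UTRmut against het, which chose the gene, was -0.68 (SE 0.17), and between het and WT it was 0.08 (SE 0.16). Against WT, which shares the UTRmut libraries with the contrast that chose it, Enpp6 had a log2 fold of -0.60 (SE 0.17) in UTRmut. It ranked 28th of 16119 genes by unadjusted p (0.00332), with a Benjamini-Hochberg adjusted p of 0.999 in edgeR, so it missed the threshold of 0.05. Over 12 alternatives the adjusted p was 0.160 at the lowest and over 0.999 at the highest. Because the UTRmut libraries are shared, this p lends no independent support. The difference had the same sign in each sex, at -0.60 between the female and -0.58 between the male libraries in log2 CPM. Counting error alone allows 89 to 130 counts in the UTRmut female and 88 to 129 in the UTRmut male (exact Poisson 95% intervals). It allows 115 to 162 in the het female, which overlaps both, and 155 to 208 in the het male. For WT the intervals were 136 to 187 in the female and 138 to 189 in the male. These are raw counts of libraries that differ in total counts, with counting error only.

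Myrf, the gene of the transcription factor that oligodendrocytes need to start and keep the myelin programme, was likewise lowest in UTRmut. It lies at chr19:10208272-10240748 (minus strand). It had 128 and 147 counts in UTRmut, 158 and 168 in het and 169 and 199 in WT, or 12 and 12.8 CPM in UTRmut, 16.4 and 15.7 in het and 16.3 and 17.2 in WT. Both UTRmut libraries lay below the other 4, and het and WT overlapped. Set against WT, UTRmut had a log2 fold of -0.44 (SE 0.15), which missed the threshold as well, with an adjusted p of 0.999 in edgeR and 0.415 at the lowest of 12 alternatives. It was -0.06 (SE 0.15) for het against WT and -0.38 (SE 0.15) for UTRmut against het. Without the UTRmut female or any other library, the fold of Enpp6 against WT stayed between -0.66 and -0.53 and that of Myrf between -0.48 and -0.38.

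Of the 9 members, 0 passed in UTRmut against WT (edgeR, Benjamini-Hochberg adjusted p under 0.05), beside 0.00620% of all genes tested, and DESeq2 also called 0. At an unadjusted p under 0.05 there were 2 members, Enpp6 and Myrf, against 2.71% of all genes, with Enpp6 resting on the libraries that chose it. These 2 were also the members whose UTRmut libraries lay wholly below WT, against 14.6% of all genes, and Apod was the 1 member wholly above, against 14.0%. The median log2 fold of the 9 was -0.10, with 1 positive, where 47.9% of all genes were positive and their median was -0.01.

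For all 6 sheath genes the UTRmut libraries overlapped WT. For Mbp, Mobp and Mal the UTRmut female was the lowest and the UTRmut male the highest of the 6 libraries. Mbp had 1061 and 1530 CPM in UTRmut, 1383 and 1405 in het and 1367 and 1367 in WT. The fold against WT was -0.08 on the log2 scale (SE 0.15) over both libraries and 0.17 without the UTRmut female. Mobp, a small basic protein of compact myelin, had 326 and 396 CPM in UTRmut, 365 and 379 in het and 383 and 392 in WT, and again the UTRmut libraries enclosed the others.

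Mal repeated this with 177 and 229 CPM in UTRmut, 185 and 201 in het and 211 and 203 in WT. Cnp had 232 and 278 CPM in UTRmut, 248 and 265 in het and 263 and 282 in WT. The UTRmut female was lowest for both genes. Mag, the myelin-associated glycoprotein on the innermost wrap that binds the Nogo receptor, had 128 and 155 CPM in UTRmut, 140 and 159 in het and 161 and 151 in WT, with all 3 genotypes overlapping.

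Mog, the myelin oligodendrocyte glycoprotein on the outer surface of the sheath, had 34.3 and 44.1 CPM in UTRmut, 33.3 and 34.7 in het and 39.0 and 42.3 in WT. Here het lay lower, below both WT libraries, with a log2 fold of -0.26 (SE 0.13) that missed the threshold (lowest adjusted p of 12 alternatives in edgeR or DESeq2 0.799). Over Mbp, Mog, Mag, Mobp, Cnp, Mal and Myrf the median log2 fold of UTRmut against WT was -0.10 with 7 of 7 negative. Without the UTRmut female it was 0.04 with 2 of 7 negative, Myrf among them, so the direction over the sheath genes rested on that library.

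**Figure D2:**
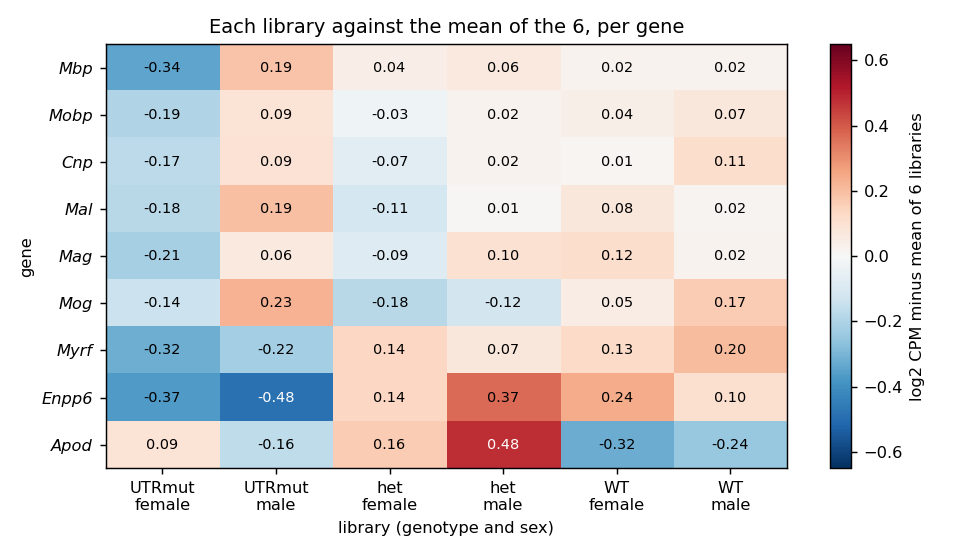
Log2 CPM of each gene (rows) in each library (columns, genotype and sex) minus its mean over the 6 libraries, in blue where lower and red where higher. The UTRmut female column is blue for the 6 sheath genes, Myrf and Enpp6, the UTRmut male column is red for the 6 sheath genes but blue for Myrf and Enpp6, and the het male cell of Apod is the darkest red.

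Apod ran in a different order from the other members. It encodes apolipoprotein D, a secreted carrier of small lipids that in mouse brain is made by mature oligodendrocytes and also by fibroblasts and mural cells of vessels and meninges. The gene lies at chr16:31296192-31314808 (minus strand). Apod had 648 and 585 counts in UTRmut, 613 and 851 in het and 472 and 557 in WT, or 60.5 and 50.9 CPM in UTRmut, 63.8 and 79.5 in het and 45.5 and 48.1 in WT. WT was lowest, UTRmut stood between, and het was highest, with no overlap between any pair of genotypes.

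The means of Apod were 55.7 ± 6.79 CPM in UTRmut, 71.7 ± 11.1 in het and 46.8 ± 1.83 in WT (SD, n = 2 each). The log2 fold of het against WT was 0.61 (SE 0.13), the largest of the members in that comparison. Earlier results had singled the gene out there by its rank, so the value is a description. The fold was 0.45 without the het male and 0.77 without the het female. UTRmut against WT gave 0.25 (SE 0.13), short of the threshold at an adjusted p of 0.999 in edgeR (0.437 at the lowest of 12 alternatives), and UTRmut against het gave -0.37 (SE 0.12).

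**Figure D3:**
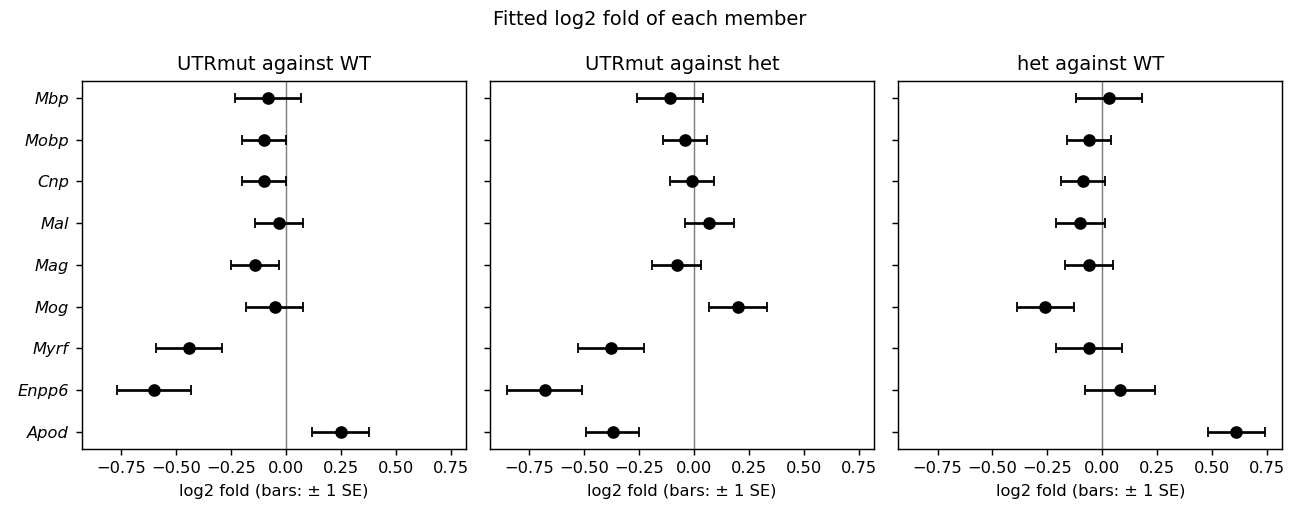
Fitted log2 fold of each gene (horizontal axes, bars ± 1 SE) in UTRmut against WT, UTRmut against het and het against WT. Enpp6 and Myrf lie left of 0 in both UTRmut panels (-0.60 and -0.44 against WT), Apod lies right of 0 in both WT panels (0.25 and 0.61), and the sheath genes lie within 0.26 of 0.

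Of the 9 members, 0 passed in het against WT, beside 0.0124% of all genes. Apod had a Benjamini-Hochberg adjusted p of 0.669 in edgeR, and passed only without a filter on low counts (0.000261). DESeq2 called 0. Apod was also the 1 member at an unadjusted p under 0.05, against 2.37% of all genes. Because this contrast had singled Apod out earlier, none of these values lends it support. Besides Apod, Mbp lay wholly above WT in het, by 0.03 on the log2 scale (SE 0.15), so 2 of 9 members did so, against 13.4% of genes. Mog, Mobp and Mal lay wholly below WT, 3 of 9 against 13.6%. The median log2 fold of the 9 was -0.06 with 3 positive, beside a median of 0.00 and 48.9% positive over all genes. In UTRmut against het, where 0.0124% of all genes passed, Enpp6, Myrf and Apod lay wholly lower (17.9% of genes did) and no member wholly higher (16.4% did). There 2 of 9 log2 folds were positive, beside 49.7% of all genes. The choice of Enpp6 fixed part of these counts.

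Fibroblast markers moved between libraries in a way that touches Apod. The summed CPM of 15 fibroblast markers of meninges and vessels was 655 and 367 in the UTRmut libraries, 583 and 821 in het and 394 and 501 in WT. Most of this was Ptgds, prostaglandin D synthase, which mature oligodendrocytes also make. Without Ptgds the other 14 summed to 130 and 98 CPM in UTRmut, 114 and 161 in het and 85.7 and 157 in WT. In het against WT 12 of 14 tested fibroblast genes had a positive log2 fold (median 0.47) and 0 passed in edgeR (1 at an unadjusted p under 0.05), and none of the 15 was at 0 in every library. That median was 0.19 without the WT female, 0.23 without the het male and 0.88 without the WT male. The het male was highest on both, but the WT male, with 157 CPM of fibroblast markers, had 48.1 CPM of Apod. The part of these cells in the Apod values was not tested. Smooth muscle and pericyte markers summed to 118 and 80.5 CPM in UTRmut, 100 and 111 in het and 88.0 and 109 in WT.

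**Figure D4:**
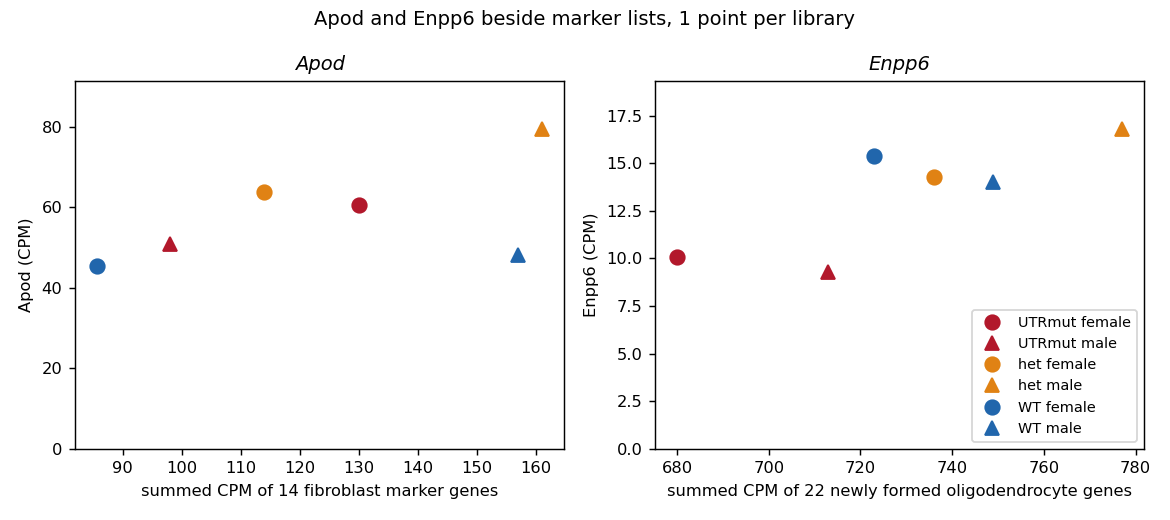
Left, Apod (CPM) against the summed CPM of 14 fibroblast markers without Ptgds. Right, Enpp6 (CPM) against the summed CPM of the 22 other genes of newly formed oligodendrocytes. Each point is 1 library, coloured by genotype. The 2 UTRmut libraries have the lowest values on both axes of the right panel, and in the left panel the WT male lies low on Apod at 157 CPM of markers.

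Other genes of the newly formed stage lay on the same side as Enpp6. Of 23 genes listed for this stage, 22 were tested and 18 had a negative log2 fold in UTRmut against WT, with a median of -0.11 beside -0.01 over all genes, and 0 passed in edgeR (3 at an unadjusted p under 0.05). The UTRmut libraries lay wholly below WT for 10 of the 22, against 14.6% of all genes. Without Enpp6 these counts were 17 and 9 of 21, with a median of -0.10. The summed level of the 22 genes other than Enpp6 was 680 and 713 CPM in UTRmut, 736 and 777 in het and 723 and 749 in WT, so both UTRmut libraries lay below the other 4. The list was drawn up with results of these counts known, and describes rather than tests the stage. Leaving out 1 library at a time gave 15 to 19 negative genes with Enpp6 counted, and 14 to 18 of 21 without Enpp6. Without Enpp6 there were 16 (median -0.06) when the UTRmut female was left out. There were 14 (median -0.03, beside 0.00 over all genes) when the WT male was left out.

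Sema5a, a guidance protein of the lineage, had 45.4 and 45.2 CPM in UTRmut, 56.0 and 60.1 in het and 53.6 and 60.5 in WT, with a log2 fold of -0.34 (SE 0.11) against WT. Bcas1, which marks cells that are building myelin, had 39.5 and 44.8 CPM in UTRmut, 49.8 and 54.6 in het and 51.6 and 51.1 in WT (log2 fold -0.28, SE 0.11). Both genes were lower in both UTRmut libraries than in any other, but both missed the threshold in edgeR at an adjusted p of 0.999. They were named for their small p in UTRmut against WT, which fixed part of this order. The share of all genes with this order was not counted. Fyn, a kinase that couples axon contact to myelin synthesis, was at -0.02 (SE 0.09) and Rap2a at 0.11 (SE 0.09), so members of the list lay on both sides of 0. In het against WT 5 of the 22 were negative with a median of 0.04, against 13 without the het male and 10 without the WT female.

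RNA composition also differed in the UTRmut libraries. Mitochondrial ribosomal RNA took 6.31% and 8.69% of counts in UTRmut, 5.78% and 5.07% in het and 4.95% and 5.23% in WT, so both UTRmut libraries lay above the other 4, as they lay below them for Enpp6 and Myrf. Proliferation markers (6 genes, 4 of them tested) summed to 3.46 and 2.78 CPM in UTRmut, 5.20 and 5.79 in het and 4.82 and 8.29 in WT. This sum, of few counts, was apart only with Mki67, which had 1 and 8 counts in UTRmut, 16 and 14 in het and 19 and 40 in WT. Top2a was also lower in both UTRmut libraries (3 and 5 counts), but Ccnb1 was highest in the UTRmut female (19 counts), and Cenpf, Cdk1 and Birc5 overlapped. Immediate-early genes (12) summed to 2319 and 2338 CPM in UTRmut, 1948 and 1957 in het and 1329 and 2022 in WT, and red blood cell genes (7 listed) to 150 and 97 CPM in UTRmut, 169 and 176 in het and 180 and 234 in WT. Both sums also set the UTRmut libraries apart from the other 4. The part of any of these in the Enpp6 and Myrf values was not tested. In bulk tissue, fewer cells of a type and less RNA per cell cannot be told apart.

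Among the rest of the lineage the direction was mixed. The lists share genes, so their counts are not separate observations. Gpr17 and Neu4 are in the precursor and newly formed lists and Bcas1 in the sheath and newly formed lists. Of the members, Apod is in the mature list and Myrf in the regulator list. Of 20 precursor genes 11 were negative in UTRmut against WT (median -0.02) and 7 without the WT male (median 0.09), with Pcdh15, a protocadherin of precursors, at -0.38 (SE 0.13), C1ql1 at 0.53 (SE 0.32) and the receptor Gpr17 at -0.16 (SE 0.11). Of 17 tested genes of mature oligodendrocytes 6 were negative (median 0.09), and without the WT female 9 were (median -0.01). Ndrg1 was at -0.47 (SE 0.16), and Fth1, the ferritin heavy chain that stores iron, at 0.13 (SE 0.09). Of 24 further sheath genes 15 were negative (median -0.07), and without the UTRmut female 7 were (median 0.07). Gjc3, a connexin of glia, had 18.0 and 18.6 CPM in UTRmut, 26.6 and 24.8 in het and 25.9 and 23.3 in WT (log2 fold -0.43, SE 0.13), which is the Enpp6 order. Cntn2, an adhesion protein beside the node, was at -0.26 (SE 0.11). No gene of these lists passed (0 called by edgeR).

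Of 15 enzymes of myelin lipid synthesis 12 were negative in UTRmut against WT (median -0.08), and 5 without the WT male (median 0.02). The sulfatide-forming enzyme gene Gal3st1 was at -0.30 (SE 0.22), the fatty acid elongase gene Elovl1 at -0.25 (SE 0.19) and the fatty acid hydroxylase gene Fa2h at -0.20 (SE 0.18). Of 19 transcription regulators of the lineage 12 were negative (median -0.06), and 8 without the WT male (median 0.02). After Myrf the smallest p values belonged to Id4, an inhibitor of differentiation, at -0.22 (SE 0.11), and to Qk, the RNA-binding protein quaking that handles myelin mRNAs, at 0.11 (SE 0.08). In the Enpp family Enpp2, autotaxin, was at 0.08 (SE 0.08) and Enpp5 at 0.07 (SE 0.10). The difference between family members was not tested.

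Genes through which myelin restrains axons had mostly positive log2 folds in UTRmut. Of 14 listed ligands, receptors and effectors 12 were tested, 9 of them with a positive log2 fold against WT (median 0.12) and 5 wholly above WT, against 14.0% of all genes. Rtn4rl1, a relative of the Nogo receptor, had 70.2 and 78.2 CPM in UTRmut, 57.4 and 60.8 in het and 56.1 and 61.0 in WT (log2 fold 0.34, SE 0.10). The coreceptor gene Tnfrsf19 was at 0.18 (SE 0.10) and the receptor gene S1pr2 at 0.66 (SE 0.41). Of the ligands, Rtn4, which encodes Nogo itself, was at 0.08 (SE 0.08), Omg at 0.07 (SE 0.11) and Mag at -0.14 (SE 0.11), and the receptor gene Rtn4r was at -0.10 (SE 0.11). None of the 12 passed (0 called by edgeR, 1 at an unadjusted p under 0.05). The median was 0.07 without the WT female or the UTRmut male and 0.19 without the WT male. Neuron markers also had 8 of 10 positive log2 folds (median 0.07), but 3 of 10 without the WT female, and the part of neurons in the list was not tested. At the node and paranode 11 of 13 genes were negative (median -0.08), with Cntnap1, the paranodal contactin partner, at -0.22 (SE 0.09) and Nfasc at -0.23 (SE 0.10). In het against WT, which shares the WT libraries, 12 of 13 were negative (median -0.09), with Cntnap1 at -0.25 (SE 0.09) and Nfasc at -0.01 (SE 0.10).

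**Figure D5:**
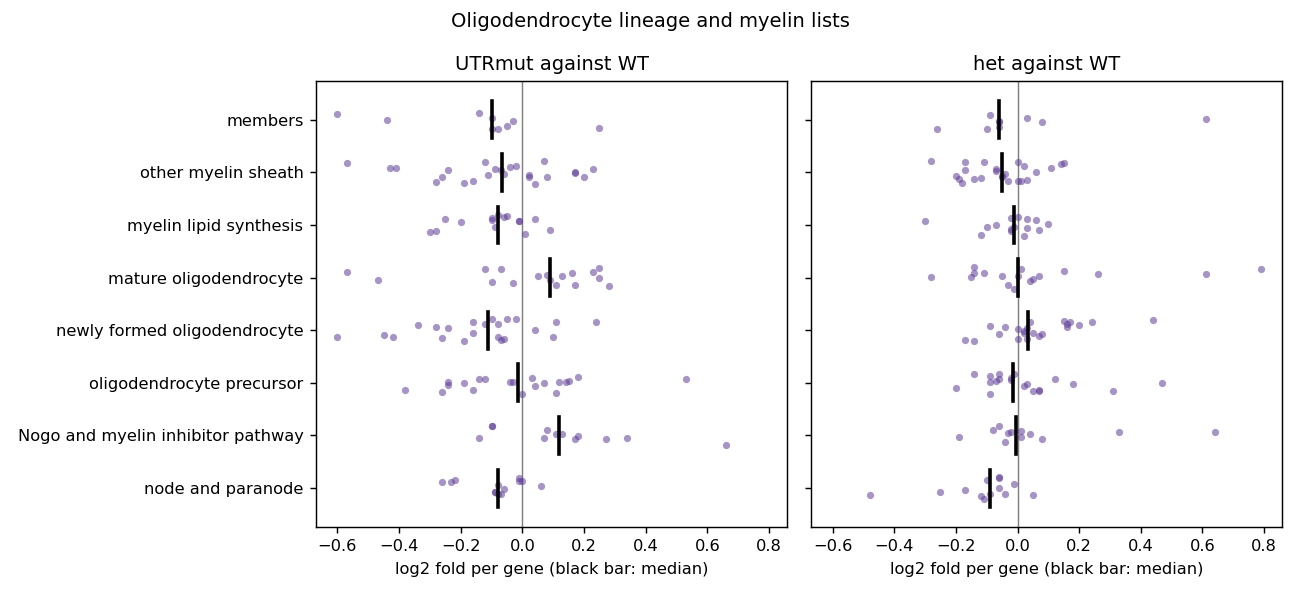
Log2 fold of each tested gene (points, spread vertically at random) in 8 lists for UTRmut against WT and het against WT, with black bars at the medians. Newly formed oligodendrocyte genes have medians of -0.11 and 0.04 in the 2 panels, and points of most lists lie on both sides of 0.

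Sex had no part in choosing the members. With genotype in the model, all 7 genes from Mbp to Myrf had a negative log2 fold in females against males (median log2 fold -0.15, beside 0.00 over all genes, of which 49.6% were positive). Mbp and Mog were at -0.18 (SE 0.11 and 0.09), Cnp at -0.15 (SE 0.07) and Mobp at -0.12 (SE 0.07), while Enpp6 was at 0.00 (SE 0.14) and Apod at -0.05 (SE 0.11). Of the 9 members, 0 passed, beside 0.0372% of all genes (edgeR, Benjamini-Hochberg adjusted p of 0.701 to 0.998; DESeq2 called 0; 1 member, Cnp, at an unadjusted p under 0.05, against 6.99% of all genes). Cnp was the 1 member whose female libraries lay wholly below the male ones, against 5.84% of genes, and 0 members lay wholly above, against 6.45%. Without the UTRmut female or the UTRmut male the median of the 7 was -0.05. The log2 fold of Mbp was -0.28 without the WT female and -0.28 without the WT male. The WT library that is left then says nothing about sex. That fold therefore rested on het (1383 and 1405 CPM, female then male) and UTRmut (1061 and 1530 CPM). Over all single libraries left out, the fold of Mbp ran from -0.28 to -0.01.

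The change per mutant allele was compared between the sexes. The UTRmut female and male were already known to differ in the sheath genes, so for these genes the values restate that difference and are a description. For all 7 genes the change was more negative in females, with a median difference of -0.12 per allele in log2. Mbp was at -0.26 (SE 0.08), Mal at -0.22 (SE 0.07) and Mag at -0.19 (SE 0.07). Of the 9 members, 0 passed, beside 1.20% of all genes (edgeR, Benjamini-Hochberg adjusted p of 0.101, 0.137 and 0.201 for these 3 genes, the members at an unadjusted p under 0.05, which 13.6% of all genes had, with DESeq2 calling 0). Each genotype and sex is 1 library, so sex and library cannot be told apart in the UTRmut female. Mbp passed without the het male (edgeR, Benjamini-Hochberg adjusted p = 0.00520) and without a filter on low counts (0.0137). Without the UTRmut female its difference was -0.06, and the lowest adjusted p among the members was 0.480. Apod (-0.52) passed without the UTRmut male (edgeR, Benjamini-Hochberg adjusted p = 0.0260) and with the opposite sign (0.85) without the WT male (9.58e-06). Of the other 24 sheath genes 22 were more negative in females, and 13 without the UTRmut female. Of the 15 lipid enzymes 8 went the other way, and the desaturase genes Scd1 (0.55, SE 0.09) and Scd2 (0.27, SE 0.06) passed there, at an adjusted p of 0.00726 and 0.0450 in edgeR. Neither passed without the UTRmut female, the WT female or the WT male. The UTRmut female also held more fibroblast marker RNA than the UTRmut male (655 against 367 CPM). Its summed astrocyte markers were higher too (7063 against 6085 CPM), but that difference rested on Slc1a2 (5256 against 4197 CPM). Other astrocyte markers went both ways between these libraries, such as Gjb6 (55.2 against 46.3 CPM) and Aldoc (630 against 673 CPM). The part of fibroblast and astrocyte RNA in the sheath genes was not tested.

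The genes most like the members over the 6 libraries were named by Pearson's r of log2 CPM among 15332 genes of at least 1 CPM. With so many genes and 6 libraries high values arise freely, and r is only a description. For Enpp6 these were Onecut2 (0.977), Nfib (0.976), Hsf5 (0.975), Tmeff2 (0.974) and Gm45629 (0.966). For Apod they were AU023762 (0.996), Ghr (0.981), Gm37216 (0.980), Qk (0.971) and Car13 (0.967). For the mean of the 7 genes from Mbp to Myrf they were Mobp, itself a member (0.996), Adora2b (0.994), Fam117a (0.987), the tight-junction gene of myelin Cldn11 (0.986) and Hif1a (0.978).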

How the data were processed

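The authors deposited raw read counts per Ensembl gene for 6 libraries, made per the labels with the TruSeq Stranded Total RNA kit. The submitters' processing notes list the build GRCm38 and the tools HTSeq 0.6.0, HISAT2, Trimmomatic 0.39 and GATK 4.2.3.0, without roles. Annotation release and strand setting: not given in the sources used here. Total RNA holds unspliced transcripts, which can raise counts without spliced mRNA. The 2 unnamed columns of the table are empty and were not used. Symbols, positions and exon lengths came from GENCODE M21 (GRCm38), and 4 older symbols were matched through RefSeq synonyms.

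Genes were kept with filterByExpr (minimum count 10, minimum total 15), scaled by trimmed mean of M-values and tested in R 4.3.3 by edgeR 4.0.16 (quasi-likelihood F test, Benjamini-Hochberg over 16119 genes, threshold 0.05). All 6 libraries entered each fit, with 3 residual degrees of freedom for genotype and 2 for sex and for the sex-by-allele term. Each SE came from the fold and its F statistic, as |log2 fold| over √F. Log2 CPM used a prior count of 2. The test was checked on simulated counts with a common spread for all genes. These do not mimic the spread between a female and a male library. Alternatives were DESeq2 1.42.0, other scaling, no filter, a replicate block, fewer genotypes and each library left out; applying these to the lists, and the lists without Ptgds or Enpp6, were chosen after seeing the data. Groups followed the genotype label. In each list the 3 genes with the smallest p in UTRmut against WT were named, with Fyn, Rap2a, Rtn4, Omg, Rtn4r, Scd1 and Scd2 added after their values were seen. The members and lists were chosen with earlier results of these data known.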

Additional observations from a re-analysis of the deposited data

How the results depend on the processing

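The number of members called was 0 in UTRmut against WT under all 12 alternatives. In het against WT it was 1 without a filter on low counts (Apod) and 0 otherwise. In females against males it was 0 to 1 when single libraries were left out. For the sex difference per allele it was 1 without a filter on low counts (Mbp) and 0 to 1 when a library was left out. Among log2 folds of UTRmut against WT, leaving out a library gave -0.36 to 0.17 for Mbp, -0.24 to 0.12 for Mog, -0.25 to 0.04 for Mobp, -0.23 to 0.03 for Cnp and -0.22 to 0.15 for Mal. In het against WT it gave -0.15 to 0.03 for Mag and -0.04 to 0.20 for Enpp6. In females against males it gave -0.21 to 0.08 for Apod and -0.08 to 0.13 for Enpp6, and Enpp6 had 0.00 with RLE size factors, -0.01 with DESeq2 and -0.01 without a filter. In the change per allele it gave -0.43 to 0.19 for Mog, -0.16 to 0.00 for Cnp, -0.25 to 0.23 for Myrf, -0.52 to 0.85 for Apod and -0.56 to 0.56 for Enpp6. The cause was not tested. Library size alone as the scale moved the median of all genes in UTRmut against WT to -0.07 and that of the 9 members to -0.16. The replicate number equals the sex. Same-numbered deviations correlated at 0.0802 between UTRmut and WT, 0.196 between UTRmut and het and 0.295 between het and WT, so the numbers were not taken as pairs, and with the replicate block (sex) 0 members were called in either comparison with WT. Genes of low count, Enpp6 and Myrf among them, carry counting error that limits what these libraries can show.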
